A study of Mus musculus with 7 samples.

Results

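The sites described here are places where the glucocorticoid receptor (NR3C1) was mapped in dexamethasone-treated wild-type fibroblasts and not in treated fibroblasts lacking Klf15, with no site without ligand in any library. They were selected on presence in the deposited summit lists, after summits of all 7 lists at most 200 bp apart had been linked into sites. A site was kept when it lay on chromosomes 1 to 19 and was held by both wild-type dexamethasone lists, by neither Klf15-/- dexamethasone list and by none of the 3 vehicle lists. This gave 1001 sites, 2.95% of the 33916 autosomal sites. The same rule found 33 further sites on X and Y, which are not described.

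The libraries are chromatin immunoprecipitations with an in-house receptor antibody, from mouse embryonic fibroblasts treated for 1 h with dexamethasone, a synthetic glucocorticoid, or with ethanol. The groups are Klf15-/- with dexamethasone (2 libraries), Klf15-/- with vehicle (2), wild type with dexamethasone (2) and wild type with vehicle (1, from pooled material because little was available). The fibroblasts came from embryos of days 14 to 17 and were used at passages 4 to 11. The labels give neither the kind of Klf15 allele nor whether libraries came from separate cultures, and neither the genotype nor the cell type was checked here. Dexamethasone lists held 19432 and 19627 autosomal summits in Klf15-/- and 15338 and 16607 in wild type. The vehicle lists held 6477 and 7693 in Klf15-/- and 9834 in wild type. The Klf15-/- dexamethasone lists were thus the longer ones. Read depth is unknown, and its part in any absence was not tested.

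The glucocorticoid receptor waits in the cytoplasm with chaperones, enters the nucleus when hormone binds, and contacts DNA directly at glucocorticoid response elements or through other factors such as AP-1. Most of its sites lie away from promoters, in chromatin that is already accessible. KLF15 is a zinc-finger factor of the Krüppel-like family that binds GC-rich and CACC-type sequences. Its gene is itself induced by glucocorticoids, and both proteins are known to act jointly on some metabolic genes.

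Wild-type only sites stood mostly in the lower part of both wild-type lists. Each list carries the authors' score per summit, given here as a percentile from 0 to 100 within its own list, where 100 is the highest score. The rule used presence in these lists, so the ranks are a description. The median percentile was 35.3 in the first wild-type dexamethasone list, with quartiles of 17.4 and 51.3, and 35.1 in the second, with quartiles of 18.5 and 52.8. The lowest and highest percentiles were 0.0256 and 95.7 in the first list and 0.0295 and 95.7 in the second. Both percentiles were below 50 in 573 sites (57.2%, exact 95% binomial interval 54.1 to 60.3%), against 23.8% (22.2 to 25.4%) of the 2720 sites that all 4 dexamethasone lists held without a vehicle summit. Both were above 80 in 13 sites (1.30%, 0.693 to 2.21%), against 21.3% (19.8 to 22.9%) of those 2720. Intervals cover counting error only.

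**Figure D1:**
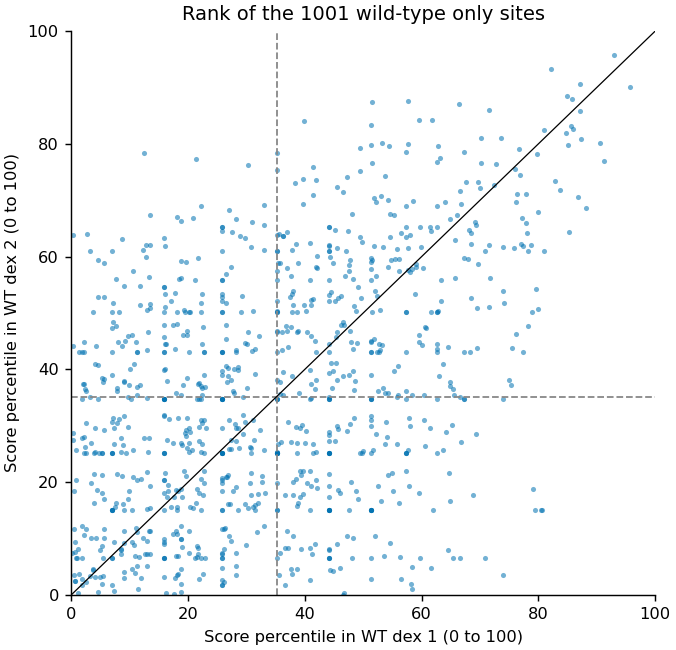
Score percentile of each of the 1001 wild-type only sites (points) in the first (x axis) and the second (y axis) wild-type dexamethasone list, from 0 to 100; dashed lines mark the medians of 35.3 and 35.1 and the solid line marks equal percentiles. Most points lie below 50 on both axes, with wide scatter around the line; vertical and horizontal rows of points are tied scores.

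The replicates ranked the wild-type only sites differently. Of the 1001, 475 stood higher in the first list and 526 in the second, and the median gap between the percentiles was 15.6. The gap exceeded 25 in 291 sites and 50 in 26. Across these sites Pearson's r was 0.44 and Spearman's rho 0.40, against 0.70 and 0.75 across the 2720 sites of all 4 lists. These are correlations across sites of the same 2 libraries, and the wild-type only sites cover a narrower range of ranks. The paired summits, which the linkage holds within 200 bp where a site has 1 per list, lay at a median of 46 bp (quartiles 21 and 79 bp), against 35 bp (16 and 65 bp) in the 2720 sites. In bands of the lower percentile the medians in wild-type only sites and in the 2720 were 53 and 55 bp up to 20, 41.5 and 43 bp from 20 to 40, and 40 and 38 bp from 40 to 60. Above 60 they were 44 and 25 bp, but there 13 of 70 wild-type only sites stood above 80, against 579 of 1108. They coincided to the base in 3 sites and were over 100 bp apart in 151. All but 3 sites consisted of 1 summit per wild-type list.

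The wild-type only class made up 22.0% of the 4554 autosomal sites that both wild-type dexamethasone lists held without a vehicle summit, a share the rule itself sets. Another 833 of these sites had a summit in exactly 1 Klf15-/- list, 422 in the first and 411 in the second, and 2720 in both. With the first wild-type library left out the class held 2933 sites, and without the second 2471, since 1 list then sufficed. The 833 sites stood little higher than the wild-type only sites, at median wild-type percentiles of 36.9 and 40.1. By the lower of its wild-type percentiles, a site was wild-type only in 39.9% (36.1 to 43.9%) of cases up to percentile 10, in 20.8% (17.1 to 24.8%) between 40 and 50, and in 0.621% (0.0753 to 2.23%), 2 of 322, above 90. The share was lower in each successive band of 10 percentiles.

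**Figure D2:**
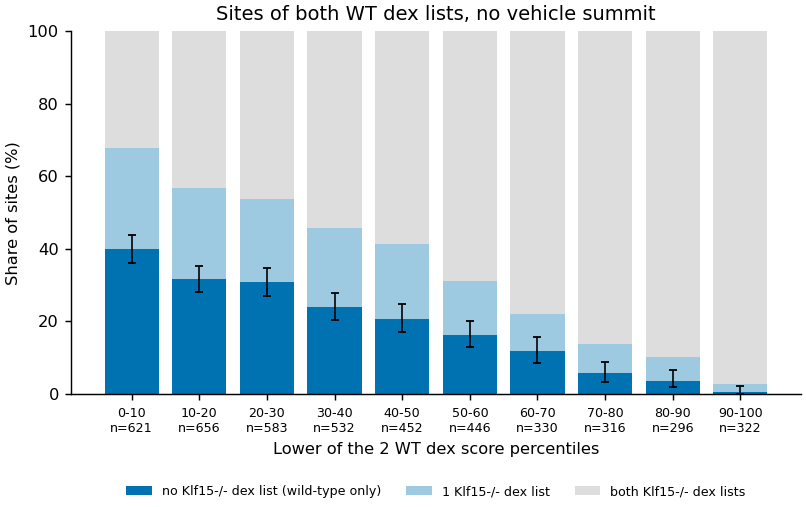
Share (%) of the 4554 sites of both wild-type dexamethasone lists without a vehicle summit that were held by no Klf15-/- dexamethasone list (dark blue, wild-type only), by 1 (light blue) or by both (grey), in bands of the lower wild-type percentile; n is the number of sites and error bars are exact 95% intervals of the wild-type only share. The dark bars run from 39.9% in the lowest band to 0.621% in the highest.

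A wild-type replicate also missed many low-ranked sites, so absence was compared list by list. Among the 7120 sites of the first wild-type list without a vehicle summit, 44.0% (42.8 to 45.1%) were absent from the first and 44.4% (43.3 to 45.6%) from the second Klf15-/- list, against 36.0% (34.9 to 37.2%) absent from the wild-type replicate. Among the 7994 of the second wild-type list, 46.3% and 46.4% were absent from the Klf15-/- lists, against 43.0% from the wild-type replicate. Between percentiles 60 and 80 of the first wild-type list the shares were 21.3% and 21.5%, against 8.38% (6.76 to 10.2%), and in the second they were 24.7% and 24.8%, against 13.7% (11.7 to 15.8%). Up to percentile 20 of the second wild-type list, the Klf15-/- lists lacked fewer sites (66.8% and 67.1%) than the shorter wild-type replicate did (69.4%, 67.4 to 71.2%). In that lowest band the first wild-type list gave 63.4% and 65.3%, against 60.7% (58.6 to 62.8%). In the lowest ranks the order of the genotypes thus depended on the list, and from percentile 40 upward both Klf15-/- lists lacked more sites than the wild-type replicate in either list. List lengths differ, and 2 libraries against 2 cannot give an exact two-sided permutation p below 0.333, so no test was made.

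By the median, Klf15-/- dexamethasone summits lay somewhat farther from the wild-type only sites than from wild-type dexamethasone sites not matched for rank. The Klf15-/- lists took part in choosing the sites, so these distances are a description. The nearest one, of either list, lay at a median of 11.6 kb (95% interval of the median 10.1 to 13.1 kb; quartiles 4.35 and 34.8 kb). Counted outside the site itself, the median was 9.29 kb (8.93 to 10.05 kb) for the 2720 sites of all 4 lists without a vehicle summit and 9.63 kb (9.15 to 10.2 kb) for all 4554 wild-type dexamethasone sites without a vehicle summit. The 4554 include the wild-type only sites, and their interval overlapped that of the wild-type only sites. The 2720 ranked higher than the wild-type only sites, and medians within bands of rank are given below. These differences were not tested. Taken list by list, the medians for the wild-type only sites were 14.7 kb to the first and 15.01 kb to the second Klf15-/- list. The nearest other wild-type dexamethasone summit lay at a median of 10.6 kb (9.14 to 12.5 kb). Of the 1001 sites, 496 were nearer to a Klf15-/- summit and 503 nearer to another wild-type summit, with 2 ties, although the Klf15-/- lists hold more summits. With the dexamethasone lists cut to equal length, the rule gave 1199 sites and a median of 15.9 kb to the nearest Klf15-/- summit. The nearest vehicle summit was farther away, at a median of 22.5 kb (20.1 to 24.8 kb), but the vehicle lists hold fewer summits.

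Within 1 kb, 85 wild-type only sites had a Klf15-/- dexamethasone summit (8.49%, 6.84 to 10.4%). The share over all 4554 wild-type dexamethasone sites without a vehicle summit, counting summits outside the site itself, was 9.97%, near that of the wild-type only sites. It was 14.3% (11.98 to 16.8%) for the 833 sites of exactly 1 Klf15-/- list. Within 10 kb the wild-type only count was 468 (46.8%, 43.6 to 49.9%), against 50.9% (49.4 to 52.3%) of the 4554. Within 100 kb it was 915 (91.4%, 89.5 to 93.1%), against 94.6% (93.9 to 95.2%). The 4554 include the wild-type only sites, and these differences were not tested. Rank showed no steady order with the distance to a Klf15-/- summit. The median lower percentile was 20.4 for the 383 sites with a Klf15-/- summit between 1 and 10 kb away, 25.2 for the 357 between 10 and 50 kb, 28.3 for the 90 between 50 and 100 kb, and 21.6 for the 86 beyond 100 kb. Of those 86, 41 were also over 100 kb from any other wild-type summit (47.7%, 36.8 to 58.7%) and 10 had one within 10 kb.

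**Figure D3:**
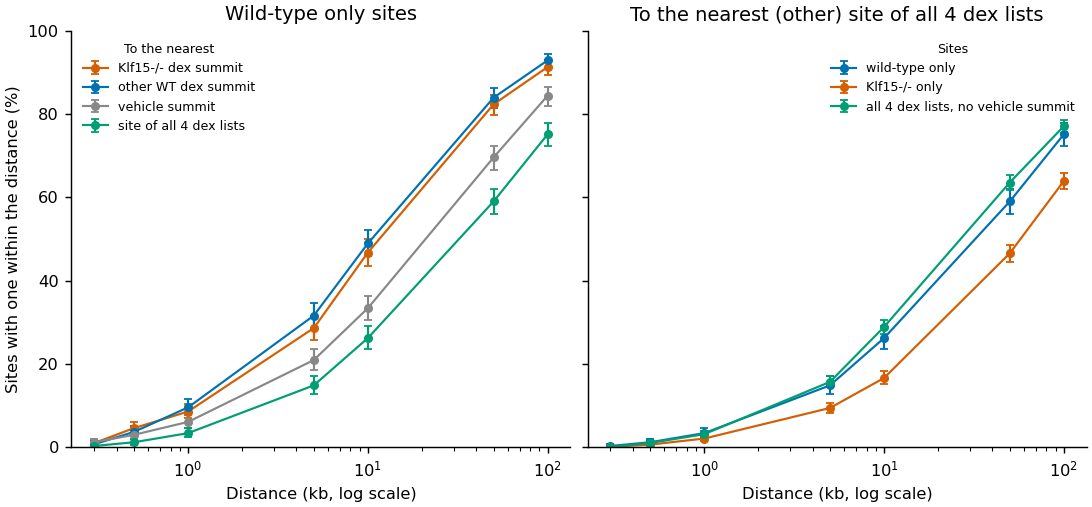
Cumulative share (%) of sites with a neighbour within a given distance (kb, log scale); points are shares and bars exact 95% intervals. In the left panel, for the 1001 wild-type only sites, the curves to Klf15-/- and to other wild-type dexamethasone summits nearly coincide (46.8% and 49.0% at 10 kb); in the right panel, for sites of all 4 dexamethasone lists as neighbours, wild-type only sites reach 26.2% at 10 kb, Klf15-/- only sites 16.6% and sites of all 4 lists without a vehicle summit 28.9%.

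The Klf15-/- summit nearest to a wild-type only site usually belonged to a site that wild-type cells held too. The same share over all Klf15-/- summits was not computed, so this is not shown to be particular to these sites. Sites of all 4 lists numbered 8842 on the autosomes, where the Klf15-/- dexamethasone lists held 19432 and 19627 summits. For 427 sites it lay in a site of all 4 dexamethasone lists (42.7%, 39.6 to 45.8%). For 286 it lay in a site that no wild-type dexamethasone list held (28.6%, 25.8 to 31.5%), and for 81 of these both Klf15-/- lists held it. Among the 85 with a neighbour within 1 kb, the neighbour was a site of all 4 lists in 32 (37.6%, 27.4 to 48.8%). It was a site of both Klf15-/- lists and no wild-type list in 12 (14.1%, 7.51 to 23.4%), pairs in which each genotype had its own reproduced summit at over 200 bp from the other.

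The number of wild-type only sites changed little with the linkage gap, from 1001 at 200 bp to 979 at 100 bp and 976 at 500 bp. The sites themselves partly changed. The 151 with wild-type summits over 100 bp apart do not stay linked at 100 bp. The 45 with a Klf15-/- summit within 500 bp drop out at 500 bp. The share with a Klf15-/- summit within 1 kb did depend on it, at 18.4% for 100 bp and 4.10% for 500 bp, against 8.49%. With the gap of 200 bp, Klf15-/- summits 201 to 300 bp away, just outside it, were found for 9 wild-type only sites, the closest at 201 bp. Just inside, 94 sites were not counted because their closest Klf15-/- summit lay 101 to 200 bp from a wild-type summit. Where a Klf15-/- summit did fall in a wild-type site, the closest separation had a median of 14 bp over 3553 sites. The closest wild-type only site, chr10:67467090-67467099, had percentiles of 23.0 and 29.6. Its Klf15-/- neighbour at 201 bp, in the second list alone, stood at percentile 2.44. The next, chr12:5183640-5183731, had wild-type percentiles of 62.6 and 25.2 and a neighbour at 205 bp that both Klf15-/- lists and 1 wild-type list held. At chr8:112274703-112274737 (76.2 and 46.3) the neighbour lay at 206 bp and was held by both Klf15-/- lists, 1 wild-type list and 2 vehicle lists. At chr6:92493003-92493011 (1.75 and 12.2) it lay at 235 bp in 1 Klf15-/- list, and at chr3:145161411-145161482 (21.7 and 59.7) at 236 bp in both, with 1 wild-type list.

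Sites held by all 4 dexamethasone lists, 8842 on the autosomes, are a subset of the sites with Klf15-/- summits. They therefore can hardly lie nearer than the nearest Klf15-/- summit. The nearest was at a median of 34.9 kb from a wild-type only site (30.4 to 40.1 kb; quartiles 9.37 and 99.9 kb). The corresponding median was 59.1 kb (53.9 to 63.1 kb) for the 2257 Klf15-/- only sites, and 26.6 kb (24.7 to 29.3 kb) from one such site without a vehicle summit to the next of any kind. Within 10 kb, 262 wild-type only sites had a site of all 4 lists (26.2%, 23.5 to 29.0%), against 374 Klf15-/- only sites (16.6%, 15.1 to 18.2%). Over all 4554 wild-type dexamethasone sites without a vehicle summit the share was 27.9%, close to that of the wild-type only sites. The classes also differ in the lists that define them, and no test of the difference between classes was made. To the sites of all 4 lists without a vehicle summit the median was 149 kb (134 to 170 kb), with 93 wild-type only sites within 10 kb (9.29%, 7.56 to 11.3%). Over the 4554 sites these were 123 kb (115 to 130 kb) and 11.4% (10.5 to 12.4%), and over the 2720 they were 113 kb (105 to 123 kb) and 12.7% (11.5 to 14.0%). Wild-type only sites were thus farther from these sites by the median, and their share within 10 kb was lower than over the 4554 and over the 2720. These differences were not tested.

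The neighbouring sites of all 4 lists had vehicle summits about as often as such sites in general, and stood somewhat higher in the wild-type lists. The 262 wild-type only sites pointed to 255 different neighbours, and 68.7% of the 262 had a neighbour with a vehicle summit, against 69.2% of all 8842. The median percentiles of the neighbours were 74.6 and 75.8 in the Klf15-/- lists and 74.0 and 76.1 in the wild-type lists. Over all 8842 the medians were 73.8 and 74.2 in Klf15-/- and 68.1 and 70.4 in wild type. The wild-type only site stood below its neighbour in both wild-type lists in 196 of 262 cases and above it in both in 29. Wild-type only sites rank lower as a class, at medians of 35.3 and 35.1, and no such count was made for other sites.

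The site closest to one of all 4 lists was chr3:50884488-50884534, at percentiles 51.4 and 76.7 in wild type. Its neighbour, 236 bp away and held by 2 vehicle lists too, stood at 91.2 and 94.9 in the Klf15-/- lists and at 41.6 and 29.1 in the wild-type lists. The next was chr15:27751578-27751580, at 52.5 and 19.4. Its neighbour at 263 bp stood at 66.7 and 65.7 in Klf15-/- and at 7.66 and 11.3 in wild type. In both places the neighbour ranked well above its wild-type position in the Klf15-/- lists, but ranks in lists of different length show no change in occupancy. At chr13:3806232-3806311, 320 bp from its neighbour, the wild-type percentiles were 11.5 and 1.05. At chr6:51956379-51956406, at 372 bp, they were 10.9 and 3.79, and at chr2:125857457-125857523, at 390 bp, they were 27.0 and 68.3. At these last sites on chromosomes 6 and 2 the neighbour stood higher than the wild-type only site in both wild-type lists, at 78.8 and 70.9 and at 83.2 and 84.7. These neighbours stood lower in the Klf15-/- lists than in the wild-type lists, at 57.8 and 41.7 and at 82.4 and 75.9. The neighbour on chromosome 13 stood at 34.6 and 55.1 in Klf15-/- and at 20.9 and 3.88 in wild type.

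Within bands of rank, the share with another site of all 4 lists nearby was close to that of sites both Klf15-/- lists held in some bands and lower in others, with overlapping intervals in every band. Up to percentile 20 for the lower wild-type rank, 27.2% (23.2 to 31.5%) of 456 wild-type only sites and 27.4% (23.5 to 31.6%) of 482 sites that both Klf15-/- lists held had another site of all 4 lists within 10 kb. Between 20 and 40 the shares were 24.0% (19.4 to 29.2%) of 308 and 28.9% (25.1 to 32.8%) of 558. Between 40 and 60 they were 29.9% (23.1 to 37.5%) of 167 and 28.0% (24.3 to 31.8%) of 572. Above 60 they were 20% (11.4 to 31.3%) of 70 and 30.0% (27.3 to 32.8%) of 1108. The median distance to a Klf15-/- summit was 9.95, 14.7, 10.3 and 12.6 kb for wild-type only sites in the 4 bands from low to high, and 9.21, 9.25, 9.33 and 9.47 kb for the sites that both Klf15-/- lists held. A Klf15-/- summit within 1 kb was found for 8.99%, 8.12%, 8.38% and 7.14% of wild-type only sites in these bands, and for 10.2%, 8.78%, 9.27% and 8.94% of the sites that both Klf15-/- lists held.

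The 10 highest-ranked wild-type only sites differed in their surroundings. The first, chr10:97814815-97814851, had the authors' scores of 32.2 and 42.8 (percentiles 93.0 and 95.7). A summit of the second Klf15-/- list lay 6.62 kb away. The site sat 8.31 kb from a site of all 4 lists at percentiles 81.1 and 53.6 in Klf15-/- and 93.8 and 94.6 in wild type. The second, chr6:82071336-82071355, had scores of 40.1 and 28.3 (95.7 and 90.1) and a Klf15-/- summit at 3.68 kb, but its nearest site of all 4 lists was 407 kb away. At the third, chr3:99050759-99050791, with scores of 23.6 and 29.3, another wild-type summit lay at 6.11 kb while the nearest Klf15-/- summit, in a site of all 4 lists, was 96.6 kb away.

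At chr12:25542025-25542070 (scores 23.4 and 23.3) and chr10:18783435-18783477 (22.1 and 25.5) the nearest summits of both genotypes belonged to the same site of all 4 lists, 32.9 and 16.0 kb away. At chr8:36767234-36767274 (21.5 and 26.2) a vehicle summit lay at 2.41 kb and a wild-type summit at 2.68 kb. The nearest Klf15-/- summit there, at 12.2 kb, was held by both Klf15-/- lists, by no wild-type dexamethasone list and by 1 vehicle list.

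On chromosome 16, chr16:34909625-34909641 (scores 22.0 and 21.0) had a Klf15-/- summit of a single list at 17.0 kb and a site of all 4 lists at 26.3 kb. The other site there, chr16:31570595-31570652 (22.3 and 20.6), had a summit of the first Klf15-/- list 416 bp away, at percentile 34.9, and none of the second list within 12.7 kb. At chr7:144709772-144709815 the scores were 19.6 and 34.6, and the nearest Klf15-/- summit lay at 310 kb against 34.5 kb for another wild-type summit. At chr3:97614450-97614483 (21.3 and 20.1) these distances were 47.3 and 47.6 kb. Of the 10, only the second site on chromosome 16 had a Klf15-/- summit within 1 kb.

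The 5 wild-type only sites farthest from any Klf15-/- dexamethasone summit stood at or below the median percentiles of the class, and 3 of the 5 were as far from any other wild-type summit. At chr13:10947073-10947091 (percentiles 35.3 and 34.7) the nearest Klf15-/- summit was 1113 kb away, and so was the nearest other wild-type summit. At chr12:38707920-38708059 (15.9 and 9.85) both distances were 537 kb, and at chr16:35501679-35501764 (11.2 and 20.3) both were 480 kb, although a vehicle summit lay 0.259 kb from the site on chromosome 16. At chr15:65627316-65627486 (3.95 and 16.3) the nearest Klf15-/- summit was 682 kb away and another wild-type summit 57.4 kb. At chr10:36203566-36203586 (18.7 and 27.0) the distances were 482 kb and 0.896 kb, with a vehicle summit at 1.43 kb.

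Most wild-type only sites had no other wild-type only site within 50 kb. A Klf15-/- dexamethasone summit lay that near for 82.4% and another wild-type one for 84.0%. Those lists hold far more summits than the 1001 sites, so the shares are not comparable, and no class of equal size was compared. Joined to each other at distances of at most 50 kb, 841 wild-type only sites stood alone, 63 groups had 2, 10 had 3 and 1 had 4, and 50 sites had another within 10 kb. The group of 4 spanned 66.3 kb (chr6:97881060-97947338) and contained 12 wild-type and 4 Klf15-/- dexamethasone summits. Its sites lay 1.26, 2.44, 33.8 and 44.2 kb from the nearest Klf15-/- summit, at percentiles from 39.8 to 56.1 in the first and from 6.59 to 84.1 in the second wild-type list.

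The group of 3 with the highest mean rank, chr16:34855972-34909641, held 8 wild-type summits and 1 Klf15-/- summit over 53.7 kb, and it includes one of the 10 highest-ranked sites. Its sites stood at percentiles 60.7, 71.6 and 85.6 in the first and 47.4, 51.1 and 83.1 in the second wild-type list. At chr15:53827061-53876085, 7 wild-type summits and no Klf15-/- or vehicle summit fell in 49.0 kb, and the 3 sites lay 48.0 to 97.0 kb from the nearest Klf15-/- summit. At chr13:53078110-53098809, 7 wild-type summits and none of Klf15-/- fell in 20.7 kb. At chr17:43868703-43905036 there were 6 wild-type summits and 1 Klf15-/- summit in 36.3 kb. The wild-type only sites make up most of the wild-type summits in these spans because the groups were chosen by them.

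By chromosome, the wild-type only share of the 4554 sites was highest on chromosome 15, where 84 of 264 were wild-type only (31.8%, 26.2 to 37.8%), and lowest on chromosome 1, with 47 of 295 (15.9%, 11.9 to 20.6%). The intervals of these 2 chromosomes lay wholly above and wholly below 22.0%, and those of the other 17 included it. Chromosome 10 held the most wild-type only sites, 95 of 376 (25.3%, 21.0 to 30.0%), and chromosome 14 the fewest, 25 of 143 (17.5%, 11.6 to 24.7%). The lists as a whole differed in the same direction on these chromosomes. Chromosome 15 took 5.02% and 5.15% of the autosomal summits of the Klf15-/- dexamethasone lists and 5.91% and 6.06% of the wild-type ones. Chromosome 1 took 7.50% and 7.50% in Klf15-/- and 6.71% and 6.66% in wild type. Chromosome 10 took 6.48% and 6.29% in Klf15-/- and 7.90% and 7.58% in wild type, while the interval of its wild-type only share included 22.0%. The part of these chromosome-wide shares in the wild-type only counts was not tested.

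Chromosomes 15 and 1 were compared further because their shares were the highest and the lowest. The share was higher on chromosome 15 in each band of rank, with overlapping intervals, and the difference was not tested. Up to percentile 20 it was 48.9% (38.3 to 59.6%) of 92 sites on chromosome 15 and 30.4% (20.5 to 41.8%) of 79 on chromosome 1. Between 20 and 40 it was 39.3% (26.5 to 53.2%) of 56 and 17.3% (9.78 to 27.3%) of 81. Above 40 it was 14.7% (8.78 to 22.4%) of 116 and 6.67% (3.09 to 12.3%) of 135. Neighbouring Klf15-/- summits were also more distant on chromosome 15, at a median of 18.1 kb from its wild-type only sites and 11.5 kb on chromosome 1.

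**Figure D4:**
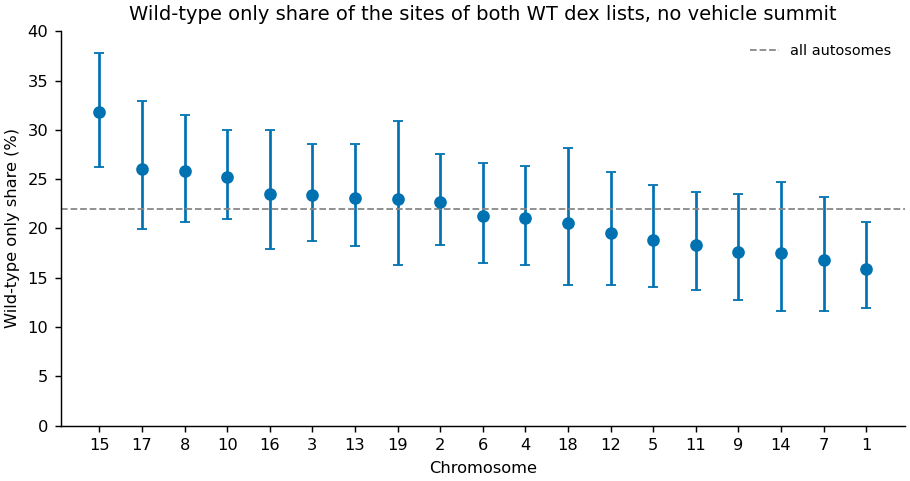
Wild-type only share (%) of the sites of both wild-type dexamethasone lists without a vehicle summit, by chromosome in order of the share; points are shares, bars exact 95% intervals and the dashed line the 22.0% of all autosomes. Chromosome 15 (31.8%) lies above the line and chromosome 1 (15.9%) below it with their whole intervals.

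Along the chromosomes, wild-type only sites fell in 362 of the 462 windows of 5 Mb that held any of the 4554 sites, with a median of 2 in the windows that held any. Windows with at least 10 numbered 4, a bound set after the values were seen. Between 50 and 55 Mb of chromosome 15, 15 of 31 sites were wild-type only (48.4%, 30.2 to 66.9%). The window held 99 and 103 summits of the Klf15-/- dexamethasone lists and 101 and 113 of the wild-type ones, although the Klf15-/- lists were the longer ones over all autosomes. Between 140 and 145 Mb of chromosome 7 it was 11 of 19 (57.9%, 33.5 to 79.7%), with 34 and 38 summits in Klf15-/- and 41 and 52 in wild type. Between 95 and 100 Mb of chromosome 10 it was 12 of 39 (30.8%, 17.0 to 47.6%), with 114 and 104 summits in Klf15-/- and 108 and 105 in wild type. Between 50 and 55 Mb of chromosome 13 it was 10 of 25 (40%, 21.1 to 61.3%), with 73 and 79 against 81 and 83. The intervals of the windows on chromosomes 10 and 13 included the 22.0% over all 4554 sites, and those on chromosomes 15 and 7 lay above it. The windows were picked for their many wild-type only sites, and no test was made.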

How the data were processed

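Receptor ChIP-seq libraries of mouse embryonic fibroblasts were sequenced as single reads of 50 bp, per the labels' protocols. CASAVA 1.4, Bowtie2 and SAMtools and the build mm9 are named in the submitters' processing notes. For the peak caller, its control and its threshold, no name is given in the sources used here. A deposited file lists the 1 bp summits of a single library with a score on a scale that is not stated, so the score served only as a rank within its list. Scores are often tied (up to 42 wild-type only sites share one in the first wild-type dexamethasone list and 40 in the second), and a percentile is the share of the list at or below a score. Coordinates are mm9, counted from 1.

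Summits were linked by single linkage (gap at most 200 bp), and distances run from the edge of a site to the nearest summit or site outside it. Shares have exact (Clopper-Pearson) 95% intervals and medians order-statistic intervals. The members were chosen by presence, so no p-value is given. The named sites are the 10 with the highest lower percentile, the 5 farthest from and the 5 closest to a Klf15-/- dexamethasone summit, the 5 closest to a site of all 4 dexamethasone lists, and the 5 largest groups. The members, lists and rules were chosen with earlier results of these data known. The supplied gene table is of GRCm38, and on 10 of 19 autosomes summits exceed its last gene. Genes, promoters, motifs and sequences, which need mm9, are not analysed here. Computation used scipy 1.17.1, numpy 2.4.6 and pandas 2.3.3 under Python 3.11.15, figures used matplotlib 3.10.9, and linkage and distances were tested on simulated lists.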

Additional observations from a re-analysis of the deposited data

How the results depend on the processing

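Of 86 values recomputed under alternatives, 51 stayed within bounds (1.5-fold for the count, the 95% interval for shares and medians) and 35 moved. With all lists reduced to summits above their median score, there were 544 wild-type only sites, 4.23% with a Klf15-/- dexamethasone summit within 1 kb and 17.1% with a site of all 4 lists within 10 kb, at median distances of 24.96 and 68.2 kb. With the median score applied to the wild-type dexamethasone lists alone, there were 137 sites, 19.7% of them within 10 kb of a site of all 4 lists, at a median of 46.6 kb. Dexamethasone lists of equal length gave 22.9% within 10 kb and medians of 15.9 and 41.0 kb. Linkage at 100 bp gave 18.4% within 1 kb and a median of 8.51 kb, and linkage at 500 bp gave 4.10%. Both follow from the gap, which sets the shortest distance possible. Without chromosomes 8, 10, 15, 17 and 19 there were 672 sites, and every recomputed value stayed within bounds. Same-numbered pair 1 alone gave 3210 sites, 12.5% within 1 kb and medians of 14.7 and 28.2 kb. Pair 2 gave 3800 sites, 12.7%, 29.8% within 10 kb and medians of 14.1 and 25.9 kb. For each pair, sites of all lists are those held by both dexamethasone lists of the pair, a looser rule than 4 lists. Klf15-/- summits are then those of its single Klf15-/- dexamethasone list. Leaving out each replicated library in turn gave 1017 to 2933 sites, 8.70% to 13.8% within 1 kb, 25.5% to 29.3% within 10 kb of a site of all lists left, and medians of 11.5 to 13.9 kb and 27.7 to 35.3 kb. The counts of 2933 and 2471 came without the first and without the second wild-type dexamethasone library, since a single list then sufficed. Requiring, as an alternative chosen after the data were seen, no Klf15-/- summit within 10 kb left 533 sites, by construction 0 within 10 kb of a site of all 4 lists, at a median of 68.3 kb. No paired analysis was possible because a replicate block needs a test and none was made, so the same-numbered pairs are given as values only. The planned motif and gene-start alternatives were not run. The unknown read depth limits what absence from a list shows.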
